A study of Mus musculus with 9 samples.

Results

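The entries described here are the ferritin heavy chain gene Fth1, the ferritin light chain gene Ftl1 and the metallothionein genes Mt1 and Mt2 in RNA sequencing of mouse sciatic nerve. They are 4 of the 25965 entries of the count table and were found by gene symbol. They were selected on measured values: Fth1 and Mt2 stood among the entries with the smallest p-values below control in PINCH1 mutant nerves, and Ftl1 and Mt1 belong to the same families. The values of PINCH1 mutant against control nerves are therefore given as a description: no p-value of the 4 entries is given for it, and whether they passed a threshold there supports nothing.

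Nerves came from C57BL/6 mice that were PINCH1 mutants, PINCH2 mutants or control littermates, and the epineurium was removed before freezing. PINCH1 and PINCH2 are adaptor proteins of integrin adhesions. Each group had 3 libraries, and each library pooled 4 nerves taken from 1 male and 1 female. The age is given as postnatal day 15 in the sample annotation and as day 14 in the dissection protocol. The sources used here do not say how the mutants were made or in which cells the genes were disrupted. Replicates are pools of nerves, so p-values measure the spread between pools.

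Library totals ran from 957828 to 1204964 counts, and the limit that a count of 0 allows, 3 counts, was 2.49 to 3.13 CPM, the count scaled for library size. It covers counting error only. Markers of myelinating Schwann cells were abundant: 11 of 11 were entries, none was at 0, and their summed level was 12140 to 13537 CPM in PINCH1 mutant, 12042 to 13932 CPM in PINCH2 mutant and 15437 to 17809 CPM in control libraries. The mutant libraries did not overlap the controls in that sum. Of the 11 markers, 0 passed an adjusted p of 0.05 in edgeR in either mutant against control nerves. Of all tested entries, 0.0633% passed in PINCH1 mutant and 0.0211% in PINCH2 mutant nerves, so a count of 0 among 11 says little. In bulk nerve, fewer cells of a type and less RNA per cell cannot be told apart. Exons of 24.7% of the entries overlapped an exon of another gene on the opposite strand, and 88.4% of the counts fell on those entries. The sources used here give no strand setting for the counting, so transcription of either strand may stand under such a name. Among values of 1 to 4, 83.6% were odd numbers, compared with 50.1% among values over 50, and 14 of the 18 Mt1 and Mt2 values were odd. What that does to the values was not tested.

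Ferritin is a protein cage that stores iron. Its heavy chain oxidises ferrous iron and its light chain favours the growth of the mineral core. Iron regulatory proteins bind a hairpin, the iron-responsive element, in the 5′ untranslated region of both messages and block translation when iron is scarce, so ferritin protein can change without its mRNA. Metallothioneins are small cysteine-rich proteins that bind zinc and copper. Their genes are induced by zinc through the transcription factor Mtf1, which binds metal response elements, and by glucocorticoids and oxidative stress. Myelin-forming glia use iron in enzymes of respiration and lipid synthesis.

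Control elements of the 4 genes are shown as background. The iron-responsive element was searched in the ferritin messages only. In the mouse transcripts of GENCODE M21 on GRCm38, a search found 1 hairpin with the loop CAGTGN flanked by 5 of 5 paired bases in the 5′ untranslated region of each ferritin message. It lay at chr19:9982732-9982761 on the plus strand in Fth1-201 and at chr7:45459778-45459807 on the minus strand in Ftl1-201. Capitals mark the loop in the 30 bases printed, which are given as DNA from 5′ to 3′.
Fth1: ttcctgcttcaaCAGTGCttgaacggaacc
Ftl1: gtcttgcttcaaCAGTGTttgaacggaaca
Of 133150 annotated transcripts, 33.9% held CAGTGN in their first 250 bases, and 0.342% held it with 5 paired bases on each side.

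The 250 bases before the transcription start were read from RefSeq promoters on GRCm38.p6 for Mt2 at chr8:94172368-94172617 and for Mt1 at chr8:94178839-94179088, both on the plus strand. Capitals mark matches to the metal response element core, searched as TGCGCNC and TGCACNC on both strands.
Mt2: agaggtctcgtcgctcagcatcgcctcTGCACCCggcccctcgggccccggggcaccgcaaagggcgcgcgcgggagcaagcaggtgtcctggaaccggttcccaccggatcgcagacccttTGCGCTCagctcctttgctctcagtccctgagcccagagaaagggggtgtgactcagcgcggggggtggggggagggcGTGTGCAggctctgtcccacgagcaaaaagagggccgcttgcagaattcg
Mt1: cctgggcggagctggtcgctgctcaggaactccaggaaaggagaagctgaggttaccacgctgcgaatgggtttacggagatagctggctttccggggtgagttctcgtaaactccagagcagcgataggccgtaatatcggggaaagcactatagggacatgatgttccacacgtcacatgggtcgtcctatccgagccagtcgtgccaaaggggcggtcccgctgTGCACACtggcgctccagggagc
Mt2 had 3 matches, at 217 to 223, 122 to 128 and 44 to 50 bases before the start, and the nearest of them was on the opposite strand. Mt1 had 1 match, at 17 to 23 bases before the start. For Mt1 and Mt2 the RefSeq table holds 1 start each, and the windows before further starts that GENCODE M21 gives downstream were not searched. The window before Ftl1 and the windows before both annotated starts of Fth1 had 0 matches. Among 32851 promoter windows of that length, 21.4% had at least 1 match, 5.17% at least 2 and 1.26% at least 3. With the 50 bases after the start added, Mt2 had 4 matches and Mt1 had 3. Those are counts that 0.517% and 1.97% of the promoters equalled or passed. A match is a run of letters, and binding was not measured.

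Where each entry lies bears on what its counts can hold. Fth1 (ENSMUSG00000024661) lies at chr19:9982703-9985092 on the plus strand of GRCm38, with no exon on the opposite strand over it. The opposite-strand gene Best1 ends 82 bp away and had at most 3 counts in any library. Ftl1 (ENSMUSG00000050708) lies at chr7:45457944-45459884 on the minus strand, and 355 of its 1340 exonic bases (26.5%) lie under Gm10252 on the plus strand. Its neighbours Gys1 and Bax had 0 to 6 and 0 to 5 counts.

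Mt1 (ENSMUSG00000031765) lies at chr8:94179089-94180325 and Mt2 (ENSMUSG00000031762) at chr8:94172618-94173567, both on the plus strand, in a cluster with Mt3 and Mt4. Mt1 has no exon over it on the opposite strand, whereas 432 of the 588 exonic bases of Mt2 (73.5%) lie under the antisense gene Gm45774. Neither Gm45774 nor Gm10252 is an entry of the table, so counts of Mt2 and Ftl1 cannot be told from transcription of these genes if strand was not kept. At 90% identity over 50% of the length, Ftl1 had 7 annotated near-identical copies, of which 3 were entries with 6 counts in all libraries together. Fth1 had 1 such copy, which was not an entry, and Mt1 and Mt2 had 0. The sources used here do not say how reads that match several copies were counted.

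**Figure D1:**
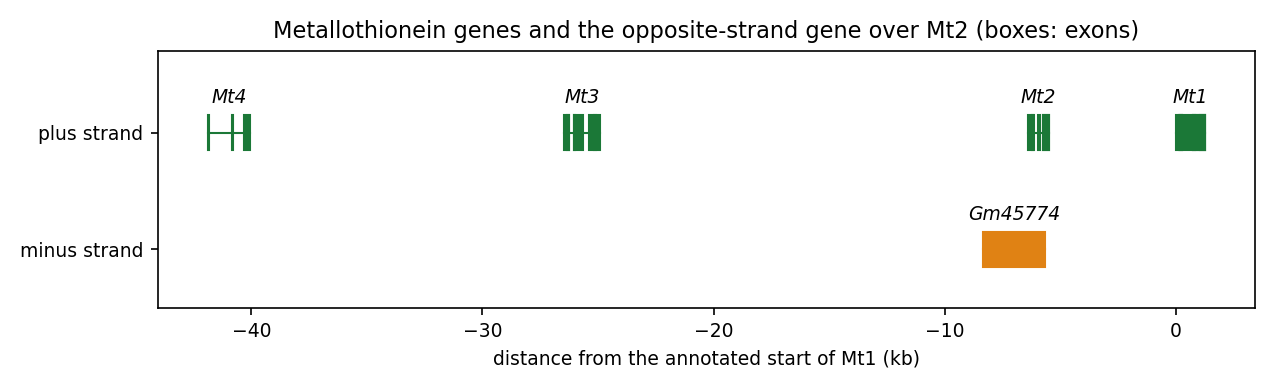
Positions of the mouse metallothionein genes and of Gm45774 as distance in kb from the start of Mt1 in GENCODE M21, with the plus strand above the minus strand and exons as boxes. The only opposite-strand exon drawn covers most of Mt2, and none covers Mt1.

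Fth1, the ferroxidase subunit, had the highest mean level per kb of the 4 in each group. Its TMM-scaled level was 88.5, 69.2 and 84.3 CPM in PINCH1 mutant libraries 1 to 3 and 101, 138 and 166 CPM in PINCH2 mutant libraries 1 to 3, against 178, 133 and 170.2 CPM in control libraries 1 to 3. All 3 PINCH1 mutant libraries lay below all 6 others, with no overlap. PINCH2 mutant libraries 2 and 3 lay within the control range and library 1 lay below it. The raw counts were 61 to 101 in PINCH1 mutant, 95 to 165 in PINCH2 mutant and 141 to 190 in control libraries. Means were 80.7 ± 10.1 CPM in PINCH1 mutant, 135 ± 32.7 CPM in PINCH2 mutant and 160.3 ± 24.0 CPM in control nerves (SD, n = 3 each), so the PINCH1 mean was 49.7% below the control mean.

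Ftl1, which encodes the light chain, was less even between libraries of the mutant groups. It had 84.8, 29.5 and 70.9 CPM in PINCH1 mutant libraries, 33.9, 42.7 and 75.4 CPM in PINCH2 mutant libraries and 64.1, 94.2 and 77.9 CPM in control libraries. The groups overlapped, and PINCH1 mutant library 2, with 26 counts, was the lowest of all 9. Means were 61.8 ± 28.8 CPM in PINCH1 mutant, 50.6 ± 21.9 CPM in PINCH2 mutant and 78.8 ± 15.1 CPM in control nerves (SD, n = 3 each). The fitted log2 fold change of PINCH1 mutant against control, -0.34 (SE 0.34), was -0.015 without PINCH1 mutant library 2.

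The balance of the ferritin subunits varied between libraries. The ratio of Fth1 to Ftl1 counts within a library, which does not depend on depth, was 1.04, 2.35 and 1.19 in PINCH1 mutant, 2.97, 3.24 and 2.20 in PINCH2 mutant, and 2.77, 1.41 and 2.18 in control libraries. PINCH1 mutant libraries 1 and 3 had the lowest ratios of the 9, and library 2, where Ftl1 was lowest, lay within the control range. The PINCH1 mutant and control ratios thus overlapped. Ftmt, which encodes mitochondrial ferritin and was also an entry, had 0 counts in every library.

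Mt2, a zinc- and copper-binding metallothionein, varied more between control libraries than the other 3 genes, relative to its mean. It stood at 4.56, 4.54 and 7.51 CPM in PINCH1 mutant libraries (5, 4 and 9 counts) and at 24.4, 10.9 and 31.2 CPM in PINCH2 mutant libraries (23, 13 and 31 counts), against 35.1, 8.48 and 42.1 CPM in control libraries (34, 9 and 47 counts). The scaled PINCH1 mutant values lay below all others, yet PINCH1 mutant library 3 and control library 2 had the same raw count of 9. Control library 2 stood well below the other 2 controls and below every PINCH2 mutant library. Means were 5.54 ± 1.71 CPM in PINCH1 mutant, 22.1 ± 10.3 CPM in PINCH2 mutant and 28.6 ± 17.7 CPM in control nerves (SD, n = 3 each), and the PINCH1 mean was 80.6% below the control mean.

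Mt1, its close relative, differed less between PINCH1 mutant and control nerves. It had 4.56, 12.5 and 7.51 CPM in PINCH1 mutant libraries (5, 11 and 9 counts), 13.8, 13.4 and 13.1 CPM in PINCH2 mutant libraries (13, 16 and 13 counts) and 19.6, 20.7 and 13.4 CPM in control libraries (19, 22 and 15 counts). PINCH1 mutant libraries again lay below the others, but the highest of them came within about the worth of 1 count of the lowest PINCH2 mutant and control libraries. Means were 8.19 ± 4.0 CPM in PINCH1 mutant, 13.4 ± 0.35 CPM in PINCH2 mutant and 17.9 ± 3.93 CPM in control nerves (SD, n = 3 each).

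The libraries ranked differently for Mt1 and Mt2. The ratio of Mt2 to Mt1 counts was 1.00, 0.36 and 1.00 in PINCH1 mutant, 1.77, 0.81 and 2.38 in PINCH2 mutant, and 1.79, 0.41 and 3.13 in control libraries. In each group library 2 had the lowest ratio, and the groups overlapped. In control library 2, Mt1 had its highest level of all 9 libraries while Mt2 had its lowest level outside the PINCH1 mutant group.

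Mt3, the brain-enriched metallothionein, which has no exon over it on the opposite strand, had few counts: 13, 0 and 3 in PINCH1 mutant, 4, 5 and 11 in PINCH2 mutant and 23, 5 and 19 in control libraries. Its groups overlapped, and library 2 was the low one among controls, as for Mt2. The fitted log2 fold changes of Mt3 were -1.60 (SE 0.85) in PINCH1 mutant and -1.21 (SE 0.83) in PINCH2 mutant against control nerves. They rest on few libraries: the PINCH1 mutant value was -3.33 without PINCH1 mutant library 1 and -1.07 without library 2, and the PINCH2 mutant value ran from -1.81 without PINCH2 mutant library 3 to -0.75 without control library 1. Mt4, an epithelial family member, had 0 counts in every library.

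**Figure D2:**
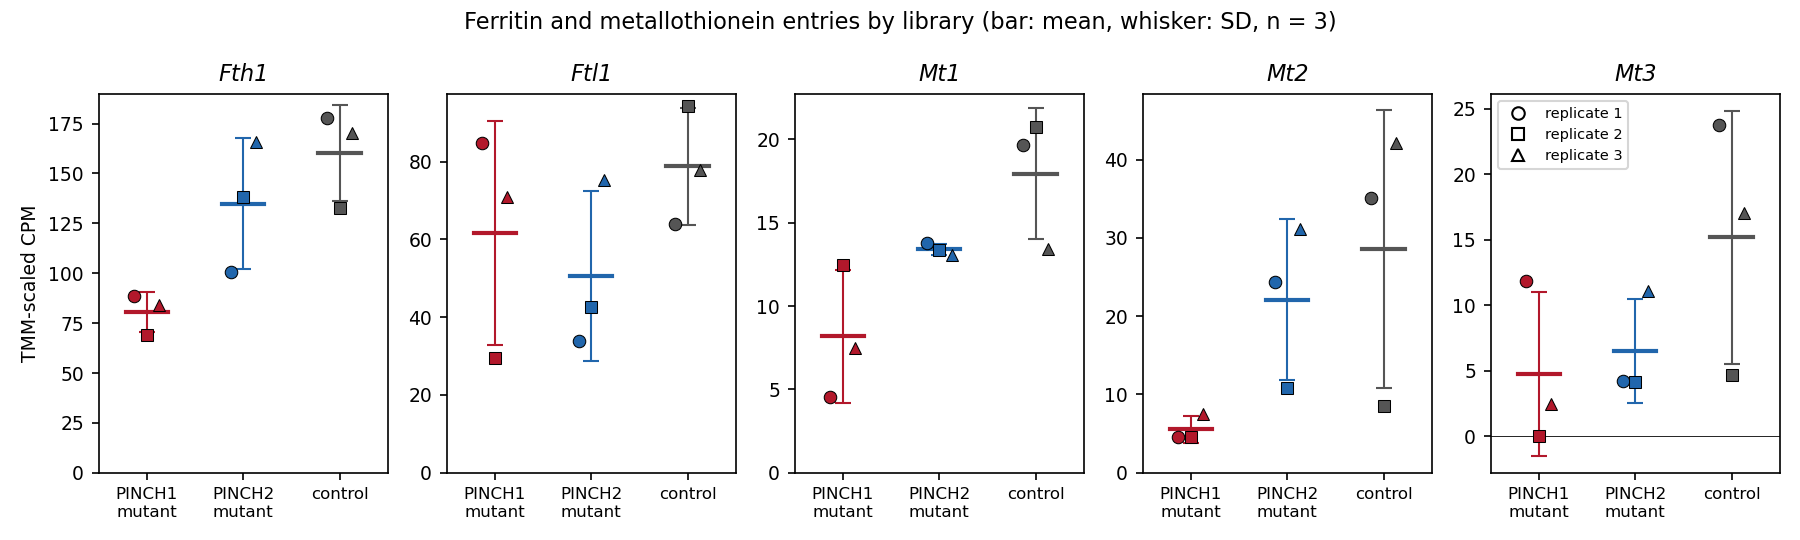
TMM-scaled CPM of Fth1, Ftl1, Mt1, Mt2 and Mt3 in PINCH1 mutant, PINCH2 mutant and control libraries, with points for libraries, thick bars for means and whiskers for SD (n = 3 each). PINCH1 mutant points lie below all others for Fth1, Mt1 and Mt2, and the groups overlap for Ftl1 and Mt3.

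Set against transcript length, the 4 entries kept to a wide range of levels. In control nerves Fth1 averaged 173 CPM per kb, Ftl1 81.4, Mt2 55.9 and Mt1 32.7 CPM per kb of the reference transcript. Of the neighbours in that order, Fth1 and Ftl1 did not overlap between control libraries, whereas Ftl1 and Mt2 overlapped, as did Mt2 and Mt1. In PINCH2 mutant nerves the order was the same, with 145, 52.3, 43.3 and 24.4 CPM per kb, and Ftl1 overlapped Mt2 and Mt2 overlapped Mt1. In PINCH1 mutant nerves the level was 86.8 CPM per kb for Fth1, 63.8 for Ftl1, 14.9 for Mt1 and 10.8 CPM per kb for Mt2. There Fth1 overlapped Ftl1, Mt1 overlapped Mt2, and neither metallothionein overlapped a ferritin.

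For PINCH1 mutant against control nerves, the fitted log2 fold changes were -0.99 (SE 0.22) for Fth1, -0.34 (SE 0.34) for Ftl1, -1.14 (SE 0.49) for Mt1 and -2.32 (SE 0.56) for Mt2. All 4 entries passed the filter on low counts, and 0 of the 4 passed an adjusted p of 0.05 in edgeR's quasi-likelihood test with Benjamini-Hochberg adjustment over all 4738 tested entries, of which 0.0633% passed. The groups did not overlap, with PINCH1 mutants lower, for 3 of the 4, against 7.49% of all tested entries. Since this contrast chose the entries, nothing is read from those counts. Library and filter bear on them: without control library 2 the Mt2 fold change was -2.75 and passed the threshold, and with a looser filter or none Fth1 and Mt2 passed it. Over all tested entries the median log2 fold change was -0.02. It was -0.17 over the 1946 entries without an opposite-strand exon, the class of Fth1 and Mt1, and 0.05 over the 2792 entries with such an exon, the class of Ftl1 and Mt2.

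PINCH2 mutant nerves were set against the same 3 control libraries as PINCH1 mutant nerves. The log2 fold changes of PINCH2 mutant against control nerves were -0.25 (SE 0.22) for Fth1, -0.64 (SE 0.35) for Ftl1, -0.41 (SE 0.47) for Mt1 and -0.38 (SE 0.48) for Mt2. Each had an adjusted p of 0.999 in edgeR's quasi-likelihood test with Benjamini-Hochberg adjustment, and 0 of the 4 passed, where 0.0211% of all tested entries did. The groups of all 4 overlapped, while 4.81% of all tested entries had PINCH2 mutants below controls without overlap. A p that misses the threshold at these SEs does not show that PINCH2 mutant and control nerves were alike. The sign of the Mt2 value rested on control library 3, without which it was 0.019.

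PINCH1 mutant and PINCH2 mutant nerves were also set against each other, using the same PINCH1 mutant libraries as the contrast that chose the entries. The log2 fold changes were -0.74 (SE 0.22) for Fth1, 0.30 (SE 0.35) for Ftl1, -0.73 (SE 0.50) for Mt1 and -1.94 (SE 0.58) for Mt2. Here 0 of the 4 passed the adjusted threshold in edgeR, against 0.0844% of all tested entries. PINCH1 mutant libraries lay below PINCH2 mutant libraries without overlap for Fth1, Mt1 and Mt2, against 5.57% of all tested entries. Those are the same low PINCH1 mutant values, so this count adds no independent evidence. With a filter of at least 1 CPM in 3 libraries Mt2 passed the threshold, at -1.98, so its call rests on the filter.

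**Figure D3:**
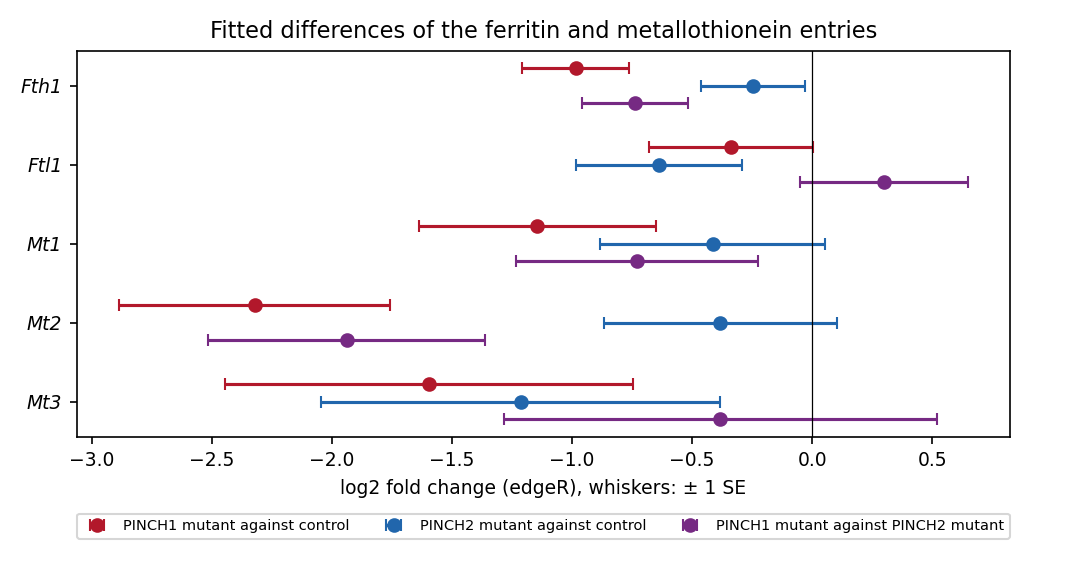
Log2 fold changes fitted by edgeR for Fth1, Ftl1, Mt1, Mt2 and Mt3 in PINCH1 mutant against control (red), PINCH2 mutant against control (blue) and PINCH1 against PINCH2 mutant nerves (purple), with whiskers of 1 SE. Mt2 has the lowest PINCH1 mutant value, -2.32, and the PINCH2 mutant values of Fth1, Ftl1, Mt1 and Mt2 lie between -0.64 and -0.25.

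Ferritin and metallothionein are also abundant in macrophages, and ferritin in red cell precursors, so their markers are set beside these values. Of 14 macrophage markers 13 were entries, Aif1 was at 0 and 4 had at most 3 counts in every library. Their summed level was 597 to 724 CPM in PINCH1 mutant, 521 to 740 CPM in PINCH2 mutant and 598 to 770.0 CPM in control libraries, and these ranges overlapped. Csf1r held 87.4% of the macrophage counts, so the sum is chiefly that of 1 entry, which overlaps Hmgxb3. Erythroid markers summed to 7.30 to 20.9 CPM in PINCH1 mutant, 8.37 to 14.8 CPM in PINCH2 mutant and 3.77 to 13.4 CPM in control libraries, and Hba-a2 and Slc4a1 were among those at 0. Alas2, which overlaps Apex2, held 94.4% of the erythroid counts. The fibroblast sum was 848 to 912 CPM in PINCH1 mutant, 562 to 919 CPM in PINCH2 mutant and 674 to 1345 CPM in control libraries. The myelinating Schwann cell sum given above was lower in both mutants than in controls. The nonmyelinating Schwann cell sum was 124 to 144 CPM in PINCH1 mutant and 141 to 205 CPM in PINCH2 mutant libraries. In control libraries it was 153 to 280 CPM. PINCH1 mutants did not overlap controls in this sum, and PINCH2 mutants overlapped both other groups. Of its 6 markers 3 passed the filter. Cadm4, which is not specific to nonmyelinating cells, held 66.6% of its counts, so the sum does not stand for those cells. The sum of general Schwann cell markers was 252 to 362 CPM in PINCH1 mutant, 289 to 338 CPM in PINCH2 mutant and 359 to 438 CPM in control libraries. The part of any cell type in the ferritin and metallothionein values was not tested.

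Entries whose log2 CPM ran most like each gene over the 9 libraries were sought among 2680 entries with a mean of at least 20 CPM, and Pearson's r is a description of these libraries. For Fth1 they were Prdm16, which overlaps B230104I21Rik (r = 0.96), Neat1 (r = 0.93) and Kcnh7, which overlaps Gca (r = 0.91). Neat1, a nuclear noncoding RNA on the chromosome of Fth1, had 57 to 82 counts in PINCH1 mutant, 70 to 126 in PINCH2 mutant and 93 to 126 in control libraries. For Ftl1 they were Lamc1 (r = 0.91), H3f3b (r = 0.89) and Rps9 (r = 0.89), which encode a laminin chain, a histone and a ribosomal protein. Rps9 had 43, 11 and 35 counts in PINCH1 mutant, 7, 24 and 22 in PINCH2 mutant and 24, 36 and 43 in control libraries, and so was low in the same PINCH1 mutant library 2 as Ftl1.

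For Mt1 the entries were Itm2b (r = 0.91), Lrrc61, which overlaps Rarres2 (r = 0.89), and Pdzd2 (r = 0.88). For Mt2 they were Afap1l1, which overlaps 1500015A07Rik (r = 0.93), 1700020L24Rik, which overlaps Mmp28 (r = 0.93), and Zfp248 (r = 0.91). Afap1l1 had 0, 0 and 1 counts in PINCH1 mutant, 78, 21 and 107 in PINCH2 mutant and 40, 5 and 59 in control libraries. It shared with Mt2 the low PINCH1 mutant group, the low PINCH2 mutant library 2 and the low control library 2. No entry was among the nearest 3 of more than 1 of the 4 genes. The points share their groups and their depth differences.

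**Figure D4:**
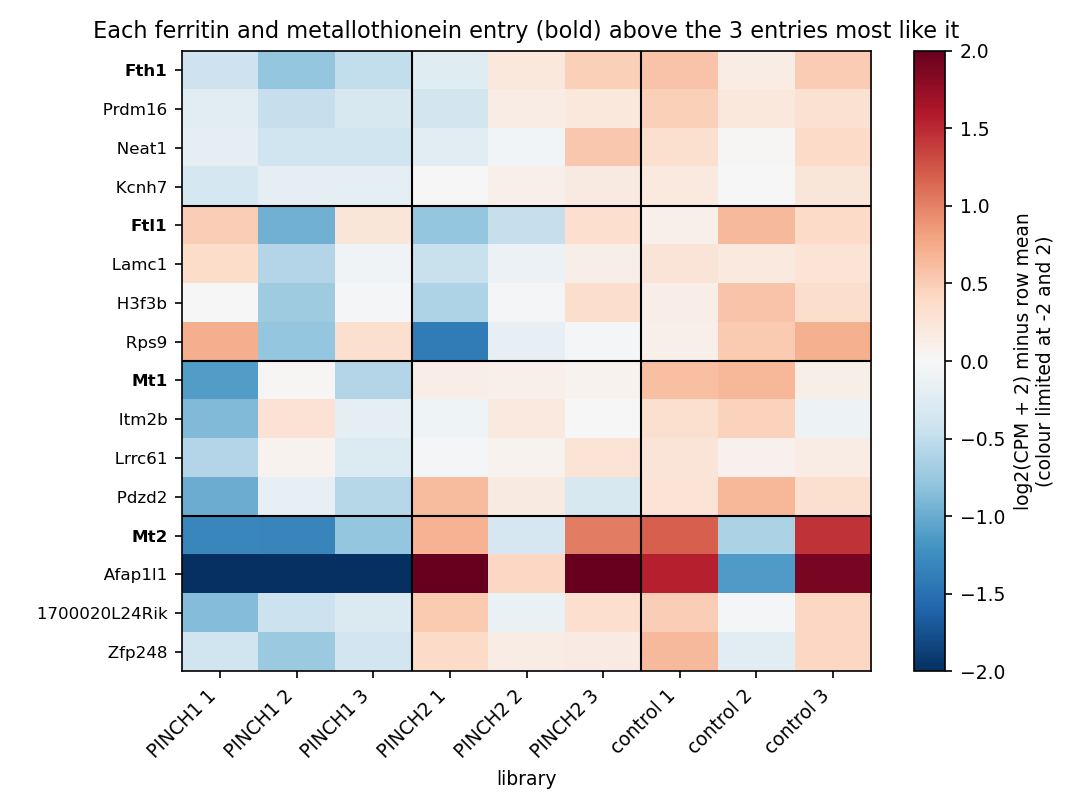
Log2(CPM + 2) minus its mean over 9 libraries for each of Fth1, Ftl1, Mt1 and Mt2 (bold) and for the 3 entries most like it, with PINCH1 mutant, PINCH2 mutant and control libraries from left to right and numbers for replicates. Afap1l1 shares with Mt2 the low PINCH1 mutant libraries and the low library 2 of each other group.

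Other genes of metal handling and of the stress and glucocorticoid responses were read from 8 lists of 145 genes. Of these, 138 were found as entries by symbol and 46 passed the filter, 42 besides the 4. Of those 42, 0 passed the adjusted threshold in either direction in any of the 3 comparisons, with edgeR or DESeq2. Of all tested entries, edgeR passed 0.0633% in PINCH1 mutant against control and 0.0211% in PINCH2 mutant against control nerves. It passed 0.0844% in PINCH1 against PINCH2 mutant nerves, so a count of 0 among 42 says little. At an unadjusted p of 0.05, edgeR gave 3 in PINCH1 mutant against control, 5 in PINCH2 mutant against control and 2 in PINCH1 against PINCH2 mutant nerves, and the share of all tested entries with such a p was 6.37% in the first of these comparisons, 4.26% in the second and 6.35% in the third. In the 6 lists of metal handling, log2 fold changes lay below 0 for 16 of 26 (61.5%, median -0.06) in PINCH1 mutant against control nerves, where 52.2% of all tested entries did, and for 12 of 26 (46.2%, median 0.03) in PINCH2 mutant against control nerves, where 49.3% did. The other lists held NRF2 targets with antioxidant enzymes, and glucocorticoid-induced genes with the receptor gene Nr3c1. Log2 fold changes there lay below 0 for 14 of 16 (87.5%, median -0.40) in PINCH1 mutant against control nerves. In PINCH2 mutant against control nerves they did for 12 of 16 (75.0%, median -0.31). Most of these 16 genes have no opposite-strand exon. Of all tested entries without one, 64.1% lay below 0 in PINCH1 mutant and 60.0% in PINCH2 mutant against control nerves. None of the lists was tested as a set.

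Iron transport was thinly covered, with 3 of 25 entries past the filter. The transferrin receptor gene Tfrc, whose message is stabilised when iron is scarce, had 0 to 3 counts in PINCH1 mutant, 1 to 5 in PINCH2 mutant and 0 to 7 in control libraries, and the exporter gene Slc40a1 had 0 in all 9. Ceruloplasmin (Cp, which overlaps Hps3), a ferroxidase, had 76 to 100 counts in PINCH1 mutant, 65 to 91 in PINCH2 mutant and 72 to 97 in control libraries. The haem transporter gene Slc48a1, which overlaps Hdac7, had 12 to 25 counts in PINCH1 mutant, 29 to 44 in PINCH2 mutant and 15 to 24 in control libraries. PINCH2 mutants thus lay above controls without overlap for Slc48a1, as did 4.24% of all tested entries, with an adjusted p of 0.999 in edgeR.

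Of the genes that load ferritin or sense iron, 6 of 8 entries passed the filter, with medians of -0.05 in PINCH1 mutant and 0.03 in PINCH2 mutant against control nerves. Pcbp2, an iron chaperone that overlaps Map3k12, averaged 446 ± 52.8 CPM in PINCH1 mutant, 499 ± 114 CPM in PINCH2 mutant and 478 ± 31.3 CPM in control nerves (SD, n = 3 each). Ncoa4, the receptor that sends ferritin to the lysosome, averaged 43.8 ± 2.94 CPM in PINCH1 mutant, 40.8 ± 8.91 CPM in PINCH2 mutant and 39.9 ± 7.26 CPM in control nerves. Aco1, an iron regulatory protein gene, did not pass the filter and had 1 to 7 counts in PINCH1 mutant, 1 to 5 in PINCH2 mutant and 0 to 5 in control libraries. Ireb2, the other such gene, did not pass it either and had 1 to 9 counts in PINCH1 mutant, 5 to 24 in PINCH2 mutant and 1 to 9 in control libraries. The 4 haem and iron-sulphur genes past the filter (Hmox2, Ppox, Alas2 and Urod) had log2 fold changes above 0 in each mutant, with medians of 0.28 in PINCH1 mutant and 0.18 in PINCH2 mutant against control nerves, and 3 of them overlap an opposite-strand gene. Hmox1, the stress-induced haem oxygenase gene, did not pass the filter. It had 1, 5 and 7 counts in PINCH1 mutant, 3, 1 and 7 in PINCH2 mutant and 0, 1 and 0 in control libraries. Each group thus had values at or under 3 counts, and no difference is read from them.

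Among zinc and copper genes, 12 of 30 entries passed the filter, with 9 below 0 in PINCH1 mutant (median -0.09) and 7 in PINCH2 mutant (median -0.05) against control nerves. Mtf1, the regulator of metallothionein genes, overlaps 1110065P20Rik and averaged 1457 ± 142 CPM in PINCH1 mutant, 1301 ± 109 CPM in PINCH2 mutant and 1336 ± 111 CPM in control nerves (SD, n = 3 each), with overlapping groups. The zinc transporter gene Slc30a2 had 56 to 65 counts in PINCH1 mutant, 79 to 82 in PINCH2 mutant and 45 to 86 in control libraries.

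Fth1 and metallothioneins can respond to NRF2, whose targets were listed together with antioxidant enzymes. That list had 9 of 30 entries past the filter. Of those, 8 lay below 0 in PINCH1 mutant (median -0.31) and 6 in PINCH2 mutant (median -0.34) against control nerves. The NRF2 targets Nqo1, Gclc and Gclm did not pass the filter, so these counts are not a reading of NRF2 targets alone. Of the 9, Taldo1 lay furthest below 0 in PINCH1 mutant against control nerves, at -2.16 (SE 0.49). It had 3 to 7 counts in PINCH1 mutant and 19 to 26 in control libraries. Its adjusted p in edgeR's quasi-likelihood test, 0.178, was the smallest of the 42 list genes. In PINCH2 mutant against control nerves it was at -0.34 (SE 0.43). Cat, the catalase gene, was at -1.09 (SE 0.44) in PINCH1 mutant and -1.29 (SE 0.45) in PINCH2 mutant nerves. Tkt, of the pentose phosphate pathway, averaged 24.0 ± 6.08 CPM in PINCH1 mutant, 18.7 ± 9.94 CPM in PINCH2 mutant and 38.0 ± 10.7 CPM in control nerves (SD, n = 3 each). Both mutants lay below the same controls without overlap, as did 7.49% of all tested entries in PINCH1 mutant and 4.81% in PINCH2 mutant nerves. The adjusted p of Tkt in edgeR's quasi-likelihood test was 0.804 in PINCH1 mutant and 0.999 in PINCH2 mutant against control nerves. Prdx1 and Sod1, a peroxiredoxin and a superoxide dismutase gene, overlapped between all groups. The list of genes induced by glucocorticoids, which also induce Mt1 and Mt2, had 7 of 14 entries past the filter. Of those, 6 lay below 0 in each mutant, with medians of -0.44 in PINCH1 mutant and -0.28 in PINCH2 mutant against control nerves. Nr3c1, among the 7, encodes the glucocorticoid receptor itself, so these are not induced genes alone. Its log2 fold changes were -1.40 in PINCH1 mutant and -0.61 in PINCH2 mutant against control nerves. Sgk1, a glucocorticoid-induced kinase gene, averaged 96.2 ± 14.5 CPM in PINCH1 mutant, 87.8 ± 27.6 CPM in PINCH2 mutant and 107 ± 4.57 CPM in control nerves (SD, n = 3 each). The groups of Sgk1 overlapped.

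**Figure D5:**
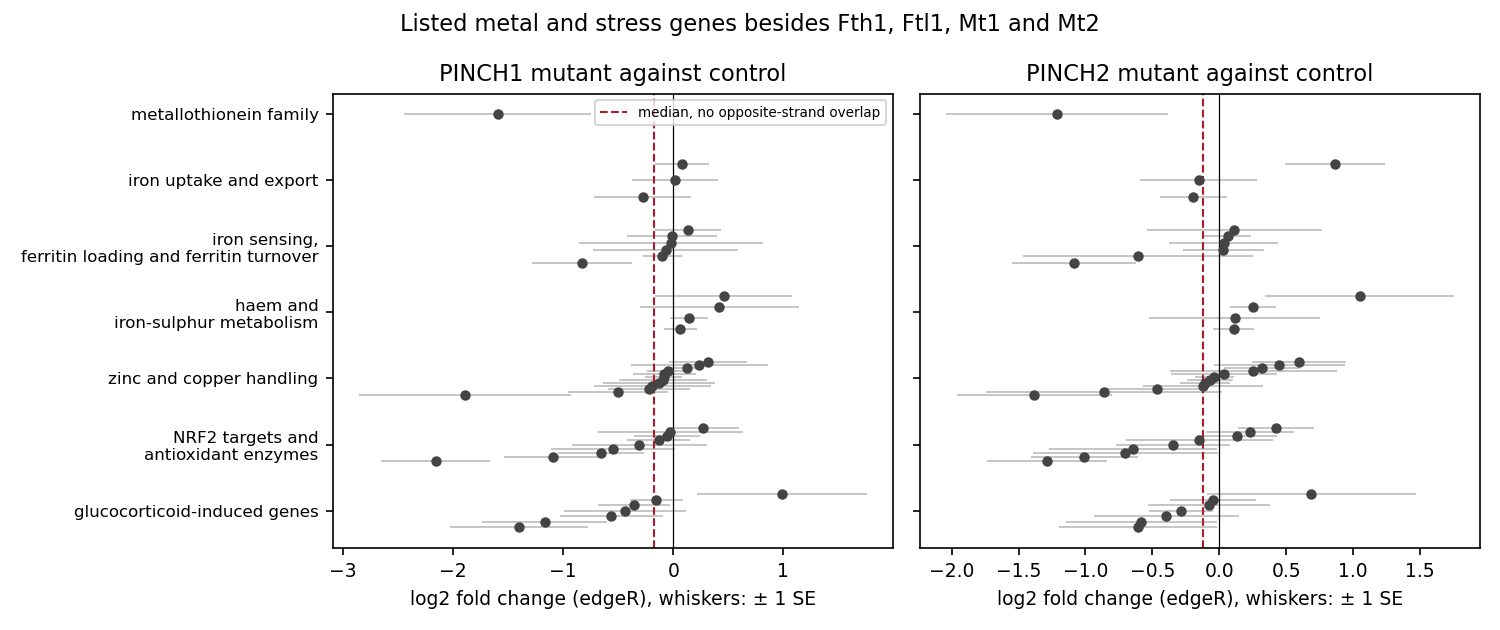
Log2 fold changes fitted by edgeR for the 42 list genes besides Fth1, Ftl1, Mt1 and Mt2 in PINCH1 mutant (left) and PINCH2 mutant (right) against control nerves, with whiskers of 1 SE and a red dashed line at the median of entries without an opposite-strand exon (-0.17 and -0.12). Most points scatter about the line, and 0 of the 42 passed the adjusted threshold.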

How the data were processed

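The submitters' processing notes name HISAT2 2.0.5, cutadapt 1.9.1 and Trim Galore 0.4.2, with GRCm38 as the genome build. The sources used here name no counting tool, annotation release or library strandedness. The deposited table holds the authors' raw counts per gene entry, with no scaling, for 9 libraries, and no column was left out.

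Counts were fitted with edgeR 4.0.16 in R 4.3.3 (TMM scaling, filterByExpr, robust quasi-likelihood F-test, all 9 libraries, genotype as the only term), with Benjamini-Hochberg adjustment over 4738 entries and a threshold of 0.05. Each SE was derived from the fold change and its F statistic, as the ratio of the log2 value's size to the root of F. CPM are TMM-scaled, and likeness used log2 CPM with a prior count of 2. Alternatives used DESeq2 1.42.0 and limma 3.58.1, other scalings and filters, and leaving out each library. The fits were tested on simulated counts. Exon overlaps came from GENCODE M21 with bedtools 2.31.1, which held 96.4% of the entries, and copies from blastn 2.17.0. No 2 libraries held identical values.

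The 4 entries and the gene lists were chosen with earlier results of these data known. Text names the 4 entries, genes within 5000 bp of them, up to 4 list genes of highest mean past the filter per list, and the 3 entries most like each of the 4. Ftmt, Mt4, Tfrc, Slc40a1, Aco1, Ireb2, Hmox1, Nqo1, Gclc, Gclm, Taldo1, Cat and Nr3c1 were named besides, after their values were seen.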

Additional observations from a re-analysis of the deposited data

How the results depend on the processing

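The 4 genes' fold changes were recomputed under 20 alternatives. PINCH1 mutant against control is the contrast that chose Fth1 and Mt2, so their passing there restates the choice and supports nothing. In it, Fth1 passed the threshold without a filter (-0.98), with a filter of 1 CPM in 3 libraries (-0.995) and with DESeq2 (-0.98), and Mt2 passed it without a filter (-2.32) and with the 1 CPM filter (-2.33). With 1 library left out, Mt2 ran from -1.92 to -2.75, and passed at -2.75 without control replicate 2. Fth1 ran from -0.89 to -1.10, Mt1 from -0.85 to -1.54 and Ftl1 from -0.015 to -0.62. Fth1 was nearer 0, at -0.82, with entries with and without an opposite-strand exon scaled separately, where Mt1 was -0.97. With limma-voom, Fth1 was -0.97 and Mt2 -1.97, and neither passed. In PINCH2 mutant against control nerves, Mt2 reversed to 0.019 without control replicate 3 and ran from -0.82 to 0.019. In PINCH1 against PINCH2 mutant nerves, Mt2 passed with the 1 CPM filter (-1.98).

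Entries past the threshold in PINCH1 mutant against control nerves were 1 higher and 2 lower. Without a filter they were 8 and 7, with the 1 CPM filter 8 and 8, and with DESeq2 3 and 4. Lower ones were 1 with the overlap classes scaled separately and 0 with limma-voom, the 6 libraries alone or a threshold of 0.01. With 1 library left out, they were 1 to 4 higher (4 without control 2) and 0 to 5 lower (5 without control 2, 1 without control 3 or PINCH2 mutant 3, 0 without control 1 or any PINCH1 mutant library). In PINCH2 mutant against control nerves, 0 were higher and 1 lower, with 0 lower under limma-voom, the 6 libraries alone, a threshold of 0.01, and without control 1 or 3 or PINCH2 mutant 1 or 3 (range 0 to 1). At an unadjusted p of 0.05, edgeR gave 302 entries in the comparison of PINCH1 mutants with controls and 202 in that of PINCH2 mutants. In PINCH1 against PINCH2 mutant nerves, 2 were higher and 2 lower. They were 12 and 8 without a filter, 13 and 14 with the 1 CPM filter, 5 higher with the 6 libraries alone, 4 lower with DESeq2 and 1 lower with limma-voom. With 1 library left out, they were 2 to 5 higher (5 without PINCH1 mutant 2 or PINCH2 mutant 2, 4 without control 2) and 1 to 4 lower (4 without control 2 or PINCH2 mutant 2, 1 without PINCH1 mutant 3 or PINCH2 mutant 3). The list genes past the threshold were 0 under every alternative. The causes were not tested.

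Same-numbered libraries had correlations of -0.11 to 0.25 over 9 pairs, with 3 over 0.1. Differently numbered libraries of 2 groups had correlations of -0.20 to 0.14. These ranges overlapped, and the numbers were not taken to pair the libraries. With a replicate block, 2 entries were higher in PINCH1 mutant and 0 lower in PINCH2 mutant against control nerves, and the block left each of the 4 genes on the same side of the threshold. For Mt2 in PINCH1 mutant against control nerves, the SE was 0.56 without the block and 0.47 with it. Mt2 in PINCH1 mutant against control nerves had no value with the 6 libraries alone, where the filter removed it, and Mt1 in PINCH1 against PINCH2 mutant nerves had no adjusted p in DESeq2, nor did Mt3 in PINCH1 mutant against control nerves.

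Depth limits Mt1, Mt2 and Mt3 most, since 1 count there is a large share of a value.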
